A study of Mus musculus with 4 samples.

Results

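The regions described here are the largest stitched clusters of accessible, non-promoter chromatin in nuclei of the mouse heart. Nuclei were taken from whole hearts of male NuTRAP/Cdh5-Cre mice aged 8 to 12 weeks, labelled C57BL/6 for strain background, and were sorted into GFP+ (endothelial) and GFP- (non-endothelial) nuclei. Each population had 2 replicate ATAC-Seq libraries, made from 100 to 50000 nuclei with 2.5 µL of the Tn5 transposase per 50000 nuclei by the labels. All animals carried both alleles, the Cre is driven by the promoter of Cdh5, the gene of VE-cadherin, and GFP therefore marks nuclei of every cell with endothelial descent, while GFP- holds nuclei of all other heart cells. Sorting kept single nuclei with diploid DNA content. The authors called 1 list of peaks per population from both replicates together, with 78912 peaks in GFP- and 65008 in GFP+. Distal peaks were those whose summit lay over 1000 bp from every protein-coding transcript start, and these numbered 64410 in GFP- and 51006 in GFP+. Distal peaks with gaps of up to 12.5 kb were stitched, which gave 28394 clusters in GFP- and 24801 in GFP+. The members are the 500 clusters of each list with the largest summed peak area, 1000 of 53195 clusters in all. The area of a peak is the value of the authors' peak caller added up over the peak, and it is not a count of reads. Because the area chose the members, their areas are a description and were not tested, and because each population has a single pooled list, no difference below has a replicate check. The intervals given are Wilson 95% intervals of shares and Newcombe 95% intervals of differences, paired where the same genes were counted in both lists, and they cover counting error only. The authors brought the libraries to a common depth before calling peaks, and since the lists hold no reads, the depth behind a peak is unknown here.

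Enhancers are stretches of DNA that bind transcription factors and raise transcription of genes that can lie far away on the same chromosome. Genes that define a cell type are often surrounded by many enhancers in a row, and such rows are called super-enhancers or stretch enhancers when they are defined from ChIP-Seq of Mediator or of acetylated histone H3. ATAC-Seq reports only that Tn5 could reach the DNA, so the clusters here are rows of accessible sites and their activity was not measured. In cardiomyocytes GATA, MEF2, TBX and HAND factors act at such sites, in endothelial cells ETS and SOX factors do, and TCF21 is a basic helix-loop-helix factor of cardiac fibroblasts. The labelled cell types were checked at promoter peaks, which the rule leaves out. All 8 endothelial marker genes (Cdh5, Pecam1, Tek, Tie1, Kdr, Erg, Emcn and Egfl7) had a promoter peak in GFP+ and 5 of 8 had one in GFP-. All 8 fibroblast markers had one in GFP- and 2 of 8 in GFP+, and of the 8 pericyte and smooth muscle markers 8 had one in GFP- and 4 in GFP+. Cardiomyocyte markers had one for 7 of 8 genes in each list, Myh6 being the exception because the summit of its start peak lay 1666 bp from the start in GFP- and 1575 bp in GFP+. Macrophage markers had a promoter peak for 2 of 8 genes and Schwann cell markers for 1 of 6 in each list. The part that other cells in a sorted population have in the results below was not tested.

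The DNA under members of each kind is shown first. Every sequence is the 150 bp around a peak summit, on the + strand of GRCm38 (mm10), with matches to the words searched in capitals. The first 3 windows belong to the largest peak of the first 3 shared members on assembled chromosomes, a shared member being one that overlapped a member of the other list.
Myh6/Myh7, chr14:54968518-54968667: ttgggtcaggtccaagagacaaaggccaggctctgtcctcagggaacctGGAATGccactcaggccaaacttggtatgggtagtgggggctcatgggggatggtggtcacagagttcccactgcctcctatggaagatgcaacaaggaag
Neat1 region, chr19:5845563-5845712: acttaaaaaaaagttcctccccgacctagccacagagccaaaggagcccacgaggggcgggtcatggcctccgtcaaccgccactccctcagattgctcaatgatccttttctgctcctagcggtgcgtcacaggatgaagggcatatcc
Tns1, chr1:74014728-74014877: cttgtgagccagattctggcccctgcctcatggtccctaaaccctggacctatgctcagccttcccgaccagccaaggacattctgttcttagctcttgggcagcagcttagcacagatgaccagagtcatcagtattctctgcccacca
The Myh6/Myh7 window lay upstream of Myh6, outside coding genes, 85 bp from a start of Mhrt, a noncoding RNA transcribed antisense to Myh7, and held a TEAD word. The second window lay 15 bp from the start of the noncoding gene Frmd8os and 160 bp from that of Neat1, and the Tns1 window lay in an intron of Tns1, 13236 bp from the nearest coding start. Neither of these held a word. The next 3 windows were picked because they hold the TCF21 word AACAGCTG, in the first GFP- members without a shared partner that had such a peak, with no overlapping GFP+ peak and an area at or above percentile 50 of its list.
Htra3, chr5:35624857-35625006: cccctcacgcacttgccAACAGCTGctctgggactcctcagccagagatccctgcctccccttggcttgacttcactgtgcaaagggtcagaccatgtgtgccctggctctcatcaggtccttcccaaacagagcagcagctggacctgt
Adamts2, chr11:50707358-50707507: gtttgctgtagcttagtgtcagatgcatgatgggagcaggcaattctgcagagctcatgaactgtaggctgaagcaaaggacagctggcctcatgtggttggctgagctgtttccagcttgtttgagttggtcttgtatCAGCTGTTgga
Tnxb, chr17:34690589-34690738: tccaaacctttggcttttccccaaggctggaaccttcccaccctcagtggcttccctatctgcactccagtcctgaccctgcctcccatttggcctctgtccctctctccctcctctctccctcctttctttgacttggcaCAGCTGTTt
The Htra3 window was intergenic, and those at Adamts2 and Tnxb were intronic. The last 2, from GFP+ only members, were picked for holding the ETS word CAGGAAGT in peaks with no overlapping GFP- peak.
Dll4, chr2:119311613-119311762: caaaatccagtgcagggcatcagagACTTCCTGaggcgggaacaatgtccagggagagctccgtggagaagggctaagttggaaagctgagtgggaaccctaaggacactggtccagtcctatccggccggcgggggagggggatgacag
Psmg1, chr16:95842856-95843005: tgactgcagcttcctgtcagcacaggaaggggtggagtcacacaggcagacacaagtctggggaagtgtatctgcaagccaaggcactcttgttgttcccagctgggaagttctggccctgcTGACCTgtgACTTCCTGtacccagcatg
These windows illustrate the words and carry no count.

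The members were mostly long rows of sites. Those of GFP- had more peaks than those of GFP+, as did the stitched clusters of the whole lists, with means of 2.27 and 2.06 peaks. Summed areas ran from 137770 to 15849 in GFP- and from 162372 to 11556 in GFP+, and the members held 19.5% of the distal area of the GFP- list and 21.1% of that of the GFP+ list. A GFP- member had a median of 13 peaks (quartiles 9 and 17, range 1 to 73), and a GFP+ member had a median of 11 (quartiles 8 and 15, range 1 to 54). The median span was 51.8 kb in GFP- and 43.3 kb in GFP+, and peaks covered a median of 20.4% and 20.6% of it. The largest peak made up a median of 26.8% of the area of a GFP- member and 29.7% of that of a GFP+ member, and it exceeded 50% of the area in 82 and 96 members. As exceptions, 4 GFP- and 7 GFP+ members were single peaks, among them the peak beside the imprinted genes Peg3 and Usp29 in each list. The limit was not a natural break. The last GFP- members, near Prkce and Krt78, had summed areas of 15856 and 15849, and the first clusters outside, near Rtkn2 and Snrk, had 15823 and 15759. In GFP+ the clusters near Otulin and Tmem107 had 11564 and 11556, and the first outside, near Fmc1 and Maml3, had 11512 and 11495.

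**Figure D1:**
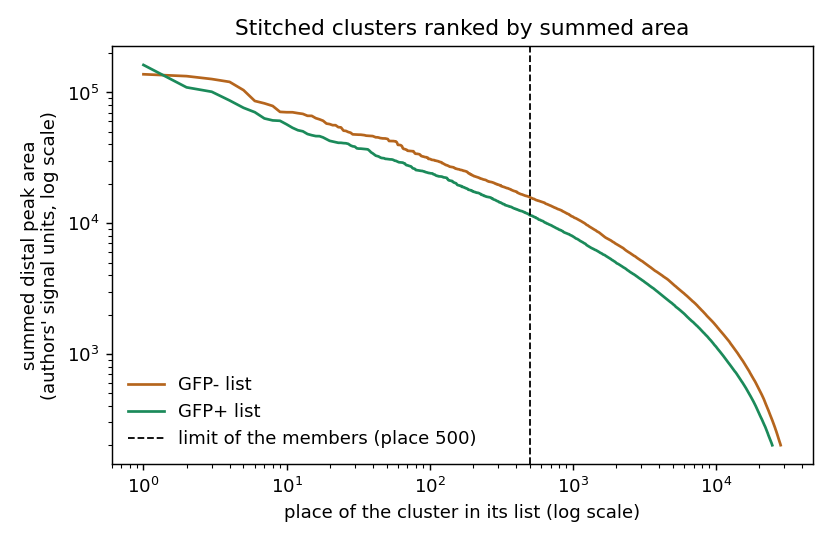
Summed distal peak area (y axis, the authors' signal units, log scale) of every stitched cluster against its place in its list (x axis, log scale), with one line per list and a dashed line at place 500. Both lines pass the limit without a step, at 15849 in GFP- and 11556 in GFP+.

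The first question was how far the clusters of the 2 populations were the same places in the genome. Of 500 GFP- members, 353 overlapped a GFP+ member (70.6%, interval 66.5 to 74.4), and of 500 GFP+ members, 356 overlapped a GFP- member (71.2%, interval 67.1 to 75). Of all stitched GFP- clusters, 2.10% overlapped a GFP+ member, and of all GFP+ clusters, 3.05% overlapped a GFP- member. Sharing was densest at the top. Of the first 50 members, 49 in GFP- and 50 in GFP+ were shared, against 145 of the GFP- members beyond place 250 (58.0%) and 137 of the GFP+ ones (54.8%). The remaining 147 GFP- members and 144 GFP+ members are called GFP- only and GFP+ only below, which refers to the 500 places and not to absence of peaks. Of the GFP- only members, 70 met a GFP+ cluster within the first 1000 places, 41 one between there and place 2000, 35 one beyond, and 1 none. Of the GFP+ only members, 104, 25, 14 and 1 did. In the median GFP- only member, 62.5% of peaks overlapped a GFP+ peak, and in the median GFP+ only member 83.3% of peaks overlapped a GFP- peak. Over all distal peaks, 64.9% of those in GFP- and 83.8% of those in GFP+ overlapped a peak of the other list. Both medians thus lay near the rate of their whole list.

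Shares of each list's distal area make the lists comparable. Distal peaks of both lists were pooled and stitched again at gaps of up to 12.5 kb. A merged region is called shared when it held members of both lists. Over all 21141 merged regions with peaks in both lists, the median log2 ratio of the GFP+ share to the GFP- share was 0.21. The 350 shared regions had a median of 0.17 (quartiles 0.00 and 0.31), close to that general shift, and only 1 of them exceeded 1 in either direction. The 147 GFP- only regions had a median of -0.53 and the 143 GFP+ only regions one of 0.48, signs that the choice of members by area favours. Of the 146 GFP- only regions with peaks in both lists, 33 lay under -1, and of the 142 such GFP+ only regions, 24 lay over 1. Among all 21141 merged regions with peaks in both lists, 1973 lay under -1 and 2032 over 1. A smaller share can come from fewer nuclei being accessible at a site or from less access per nucleus, and these cannot be told apart.

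**Figure D2:**
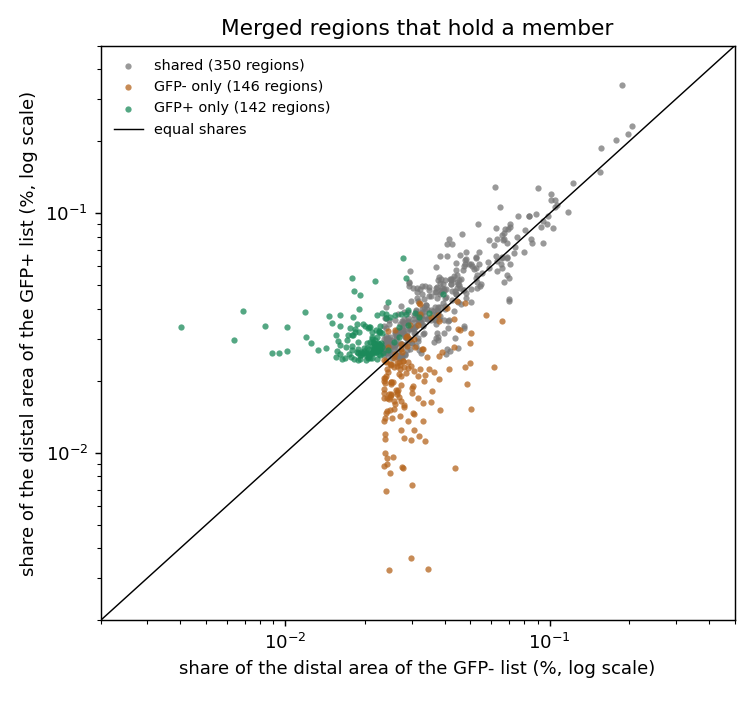
Share of the distal peak area of the GFP+ list (y axis, %, log scale) against that of the GFP- list (x axis, %, log scale) for merged regions that hold a member and have peaks in both lists, coloured by class, with a line of equal shares. The 350 shared regions follow the line up to the top corner, and the regions found in a single set of 500 leave it near the limit of the members.

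Some members found in a single set had enough area in the other list to reach the limit of that list. This area lay in several clusters or in peaks with a summit near a start. It was set against that limit and not against the member's own area, which could be larger. In 35 of 147 GFP- only members, the GFP+ peaks inside the span summed to at least the GFP+ limit but were split over several clusters by gaps. In 11 more, the sum passed that limit once GFP+ peaks were added that overlapped the member's peaks but had their summit within 1000 bp of a start. The corresponding numbers for GFP+ only members were 14 and 24 of 144. The remaining 101 GFP- only members (68.7%) and 106 GFP+ only members (73.6%) stayed below the limit of the other list. These groups were formed after the values were seen. Adssl1, the muscle adenylosuccinate synthetase, stands for the second kind. A peak of 4350 bp with an area of 16719 covered its start in GFP- with the summit 16 bp from the start, and a peak of 4484 bp with an area of 14407 covered it in GFP+ with the summit 1740 bp away, so that it counted in GFP+ only. At Actc1, cardiac alpha-actin, a start peak of 8741 bp and area 18266 in GFP- had its summit 737 bp from the start and was left out, and in GFP+ the start peak that was left out had 1058 bp and an area of 3518. Zc3h4 crossed the limit in the other direction, with an area of 18020 and the summit 1035 bp from the start in GFP- and an area of 15667 and the summit 953 bp away in GFP+. At all 3 genes the start peak had the larger area in GFP-, before any scaling to the totals of the lists. The summed distal area was also larger in GFP-, at 6.75e+07 against 4.74e+07 in GFP+, so these areas give no direction between the populations.

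The first GFP- place and the second GFP+ place was the locus of Myh6 and Myh7, the cardiac myosin heavy chains, with 17 peaks and a summed area of 137770 in GFP- and 15 peaks and 109422 in GFP+. It took 0.204% of the GFP- distal area and 0.231% of the GFP+ distal area. A single peak over the start of Myh6 was 16294 bp long in GFP- and 15936 bp long in GFP+. The peak over the start of Myh7 counted as distal in GFP- alone. It had an area of 12670 with the summit 2450 bp from the start in GFP-, and 8457 with the summit 38 bp away in GFP+. Other muscle loci held like places in both lists. Atp2a2, the calcium pump of the sarcoplasmic reticulum, was at places 8 and 14, Ldb3, a Z-disc protein, at 14 and 18, Myl2, the ventricular myosin light chain, at 60 and 37, and Tnnt2, cardiac troponin T, at 120 and 79. Tns1, a focal adhesion protein, had the most peaks of any member in both lists, 73 in GFP- and 54 in GFP+, and was at place 4 in each. Ppara, a nuclear receptor of fatty acid oxidation, was at places 5 and 6, Zmiz1, a transcriptional coregulator, at 6 and 5, Thra with Nr1d1, which encode a thyroid hormone receptor and REV-ERB alpha, at 7 and 7, and Ahdc1 at 9 and 12. Over the 8 cardiomyocyte markers, with Myh6 entered at 0 for want of a promoter peak, the median percentile rank of promoter peaks was 89.9 in GFP- and 87.7 in GFP+, and their part in the places of muscle genes in GFP+ was not tested.

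The other leading places lay at noncoding genes and on a contig. GFP- place 2 and GFP+ place 3 covered the noncoding genes Malat1, Neat1 and Frmd8os on chromosome 19, whose starts the rule does not treat as promoters. The peak over the start of Neat1 was 24478 bp long with an area of 77349 in GFP-, 58.0% of its member, and 15669 bp long with an area of 47385 in GFP+. The peak over the start of Malat1 had an area of 9807 in GFP- and 8250 in GFP+. GFP+ place 1 and GFP- place 3 was the unplaced contig chrUn_JH584304, which carries no coding gene start in the annotation, with 26 peaks and a summed area of 162372 in GFP+ and 35 peaks and 126668 in GFP-. The number of copies of this contig in the genome was not tested. With contigs left out, an alternative added after the data were seen, the shared percentages stayed at 70.6% and 71.2%.

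The first 8 GFP+ only members included the loci of 3 genes known from vessel growth, Dll4, Eng and Pdgfb. Dll4, a Notch ligand of arterial and sprouting endothelium, shared a member with Chac1 at GFP+ place 52, with 12 peaks and a summed area of 30811. In GFP-, the same span held 9 peaks with 18785, split into clusters of which the best was at place 1587. The share of the distal area was 0.0650% in GFP+ and 0.0278% in GFP-. The peak over the start of Dll4 had an area of 5934 and its summit 1481 bp from the start in GFP+, where it counted as distal, and an area of 1235 and its summit 117 bp away in GFP-, where it did not. Eng, endoglin, a TGF-beta co-receptor, was at place 80 with 16 peaks and 25506 in GFP+ and 10 peaks and 19277 in GFP-. Pdgfb, the ligand that endothelial cells release to recruit pericytes, was at place 125 with 22419 in GFP+ and 12239 in GFP-, and its start peak, left out of both sums, had areas of 6001 and 1435. Afap1l1, an actin-associated protein, was at place 134, Slc38a2, an amino acid transporter, at 150, and Palmd, palmdelphin, at 152. The GFP+ sums were 21658, 20333 and 20244. In GFP-, the peaks in these spans summed to 12693, 23995 and 16471. The sums at Slc38a2 and Palmd were above the GFP- limit of 15849 but were split over several clusters. Rilpl1, at place 93, and Adssl1, at place 88, had a start peak that counted in GFP+ alone, Rilpl1 having a start peak of area 9811 with the summit 31 bp from the start in GFP- and one of 9248 with the summit 2375 bp away in GFP+.

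Beyond the first 8, GFP+ only members lay at several transcription factors and receptors of endothelium. Of the 8 endothelial markers checked at promoters, however, 1 (Egfl7) had its start inside or nearest to a GFP+ member and 0 to a GFP- member. The same held for 7 of 8 cardiomyocyte markers in GFP+ and 5 of 8 in GFP-, and for 0 of 8 fibroblast markers in each. Sox18, a SOX factor of vessel and lymphatic development, was at place 180 with 8 peaks and 18465 in GFP+, where GFP- had 4 peaks with 4662, a log2 ratio of shares of 2.50. Elk3, an ETS factor, was at place 182 with 18386 against 8040 in GFP-, a ratio of 1.70. S1pr1, the receptor of sphingosine 1-phosphate, was at place 198 with 17632 against 9900, a ratio of 1.34. Tcf15, a helix-loop-helix factor of cardiac endothelial fatty acid uptake, was at place 433 with 12406 against 6362, a ratio of 1.47. Epas1, a hypoxia-inducible factor, was at place 252 with 15903 against 13303, a ratio of 0.77. Its start peak, left out of both sums, had areas of 9560 in GFP+ and 11931 in GFP-, not scaled to the totals of the lists. Cldn5, a tight junction protein, was at place 297 with 14745 against 11673. All of these had peaks in GFP- within their span.

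The largest shift toward GFP+ among shared members was at the gene of EGFL7, a protein secreted by endothelium. The GFP+ member at place 8 spanned 174505 bp from Sec16a over Notch1 and Egfl7 to Agpat2 with 38 peaks and a summed area of 61126. In GFP- the same span held 35 peaks with 41836, but its clusters were split, and the GFP- member at place 379 held Sec16a and Notch1 only, with 18 peaks and 17870. The log2 ratio of shares over the GFP+ span was 1.06.

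**Figure D3:**
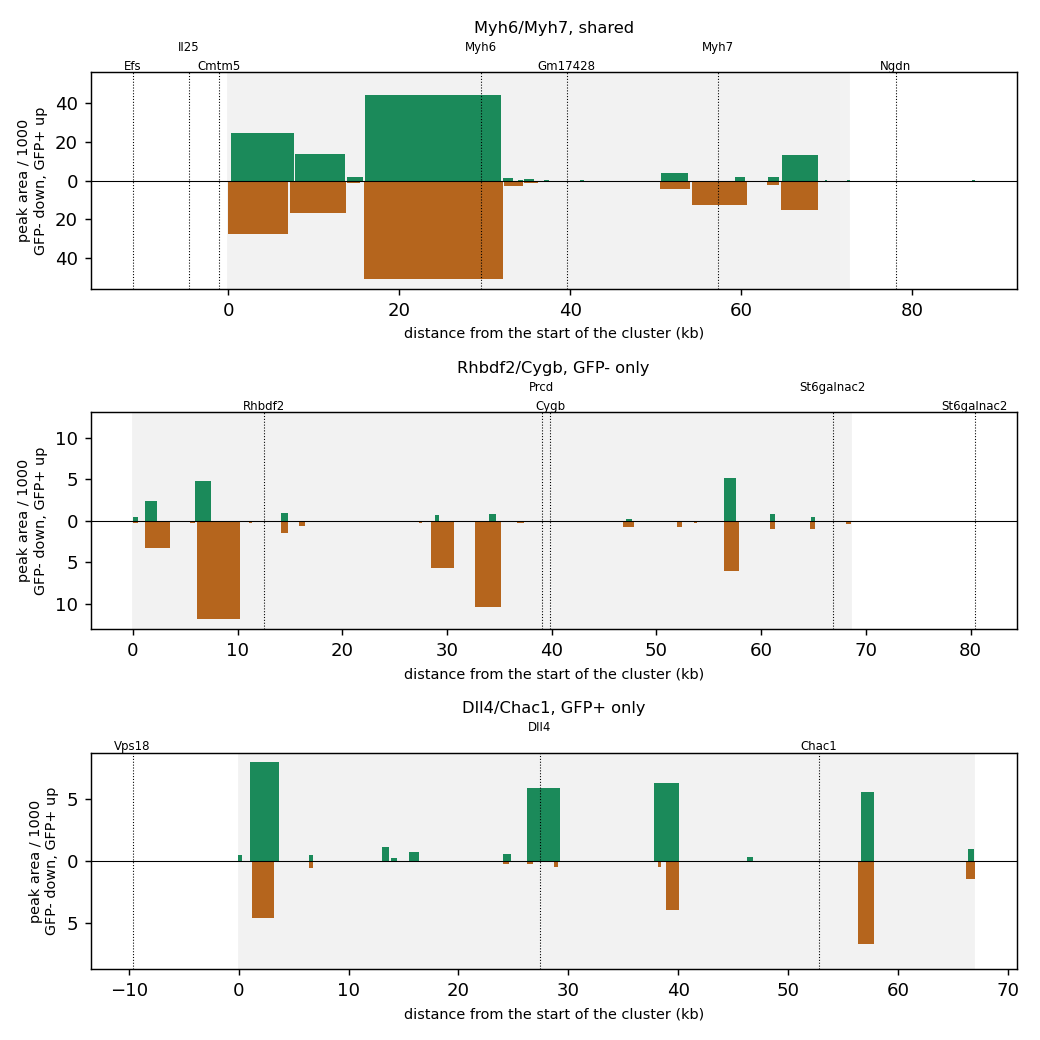
Distal peaks at the first member of each class, against distance from the start of the cluster (x axis, kb), with bar width the peak length (the narrowest are widened to stay visible), bar height the peak area in units of 1000 of the authors' signal, GFP+ upward and GFP- downward. Grey marks the span of the member and dotted lines mark coding gene starts. At Myh6/Myh7 most of the large peaks stand on both sides. The peak over the start of Myh7 is drawn for GFP- alone, since the GFP+ one did not count as distal. At Rhbdf2/Cygb most GFP- bars are the taller ones, and at Dll4 the peak over the gene start is in GFP+.

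The leading GFP- only members included loci of genes known from stroma and matrix. The first, at place 46, spanned Rhbdf2, Prcd, Cygb and St6galnac2, where Cygb encodes cytoglobin, a globin of fibroblasts and stellate cells. It had 18 peaks and a summed area of 44657 in GFP-, and the span held 10 peaks with 16877 in GFP+. Htra3, a secreted serine protease, was at place 59 with 26 peaks and 41514, against 11 peaks and 10647 in GFP+, where the best cluster was at place 3817. Its start peak had an area of 2154 in GFP- and no peak covered that start in GFP+. GFP+ did have a peak with its summit within 1000 bp of an Htra3 coding transcript start. By area it stood at percentile 80.3 of the GFP+ list, against percentile 87.3 for the largest such peak in GFP-. Adamts2, the protease that trims procollagen, was at place 64 with 38870.5 against 17885, and its start peak had areas of 6091 and 1875. Heyl, a Notch target of smooth muscle and pericytes, was at place 83 with 33865 against 6939, and its start peak had areas of 3501 and 1274. The cluster at place 85 held the 5 starts of Ppt2, Prrt1, Fkbpl, Atf6b and Tnxb, of which Tnxb encodes the matrix protein tenascin-X, and had 33654 against 11264. Slc25a33, a mitochondrial carrier, at place 84, had 33748 against 13633. These areas are not scaled to the totals of the lists, and the GFP- total is the larger. As shares of the distal area, GFP- against GFP+, they were 0.0661% and 0.0356% at Cygb, 0.0615% and 0.0225% at Htra3, and 0.0576% and 0.0377% at Adamts2. The shares were 0.0501% and 0.0146% at Heyl, 0.0498% and 0.0238% at Tnxb, and 0.0500% and 0.0287% at Slc25a33. Bcl2l11, a pro-apoptotic gene at place 79, was like Zc3h4 at place 87 in that the summit at the start lay within 1000 bp in GFP+, at 65 bp, and outside it in GFP-, at 1412 bp.

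Lower in the list, GFP- only members lay at 3 of 40 extracellular matrix genes and at 3 of 20 pericyte and smooth muscle genes. Of all 21832 protein-coding genes, 220 were at GFP- members alone. At Smtn, a smooth muscle gene among these, GFP+ peaks in the span summed to 12216, above the GFP+ limit of 11556, but were split over several clusters. Loxl1, an enzyme that cross-links elastin, was the sole GFP- member without any GFP+ distal peak in its span. It had 8 peaks over 19739 bp and a summed area of 16631 at place 438, and its start peak had areas of 4347 in GFP- and 929 in GFP+. Col6a3, a chain of type VI collagen, had 15 peaks with 16279 in GFP- and 3 peaks with 3300 in GFP+. Pdgfrb, the PDGF receptor of pericytes, lay with Slc6a7 and Cdx1 in a member of 18 peaks with 20405, where GFP+ had 5 peaks with 3465. Mgp, matrix Gla protein, had 12 peaks with 18681 against 6 peaks with 4123. Errfi1, an inhibitor of EGF receptor signalling chosen after its values were seen, had the lowest log2 ratio of shares of any member with peaks in both lists, -3.40, with 16 peaks against 3. Gata4, a cardiac transcription factor at place 90, was unlike these, since GFP+ held 17 peaks with 19950 in the span against 21 peaks with 32377 in GFP-, and its GFP+ clusters were split. Tbx2, a T-box factor, had 9 peaks with 21512.5 against 5 peaks with 8061. The areas at these genes are likewise not scaled to the totals of the lists.

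Genes at members were counted for fixed lists. A gene was at a member when its start lay inside the span, or, where no coding start did, when it had the nearest start. Members with a coding start inside were 252 of 500 in GFP- and 251 of 500 in GFP+, and members without one lay a median of 21.0 kb and 26.6 kb from the nearest. Of 21832 protein-coding genes, 613 (2.81%) were at a GFP- member and 586 (2.68%) at a GFP+ member, 393 of them at both. The cardiomyocyte, endothelial, fibroblast and non-specific lists are the study's sets from published single-cell RNA-Seq, and the others were written from general knowledge. Genes of 1 list can share a member, as Col4a1 and Col4a2 do, so the counts are descriptions.

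Cardiomyocyte genes were at the members of both populations in like number, 25 of 110 in GFP- (22.7%, interval 15.9 to 31.4) and 23 of 110 in GFP+ (20.9%, interval 14.4 to 29.4), with 19 at both. Examples at both are Ldb3, Asb2 at places 28 and 44, Ppif at 32 and 193, and Plin5, a lipid droplet protein, at 99 and 60. Of 30 sarcomere and Z-disc genes, 15 were at GFP- and 14 at GFP+ members, 12 of them at both. Csrp3, Actn2 and Myom2 were at GFP- members alone and Actc1 and Tnni3 at GFP+ members alone, although the member over Tnni3 was itself shared, overlapping GFP- place 467. In the spans at Csrp3, Actn2 and Myom2, GFP+ peaks summed to 13182.5, 17774 and 12435.5. These sums were above the GFP+ limit of 11556 but were split over several clusters. Of 22 calcium handling and ion channel genes, 6 were at GFP- and 8 at GFP+ members, all 6 among the 8, with Atp2a2, Pln, Jph2 and Hcn2 among the best placed. Cardiac transcription factors had 8 of 24 and 6 of 24, all 6 among the 8, and Gata4 and Tbx2 were the pair at GFP- members alone. Hand2 was at places 66 and 101, Mef2d at 70 and 94, and Nkx2-5 at 179 and 209. Fatty acid genes had the same 5 of 23 in each, namely Fabp3, Plin5, Dgat2, Lpl and Ppard.

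Endothelial genes were at GFP+ members more than at GFP- members, 35 of 176 (19.9%, interval 14.7 to 26.4) against 16 of 176 (9.09%, interval 5.67 to 14.3), with 13 at both and 22 at GFP+ members alone. The difference was 10.8 percentage points (interval 5.53 to 16.5). Ranked by area per bp in place of summed area, where the median member was a single peak, the difference was -1.70. The GFP- share also stood above the 2.81% of all genes. Endothelial genes at both included Col4a1 and Col4a2, type IV collagen chains of the basement membrane, at places 16 and 19, Bcam, a laminin receptor, at 35 and 25, and Klf2, the factor induced by shear stress, at 462 and 166. Of 36 receptors and junction genes, 9 were at GFP+ and 3 at GFP- members, a difference of 16.7 points (interval 1.82 to 32.1) that was -2.78 by area per bp. Egfl7, Dll4, Eng, S1pr1, Plvap, Cldn5 and Cd34, which is also on the fibroblast list, were at GFP+ members alone, Acvrl1, the endothelial receptor ALK1, at a GFP- member alone, and Notch1 and Nrp1 at both. In the span at Acvrl1, GFP+ peaks summed to 13046, above the GFP+ limit of 11556, but were split over several clusters. Likewise GFP- peaks at Dll4, Eng and Cd34 summed to 18785, 19277 and 19132, above the GFP- limit of 15849, and were split. Of 28 endothelial transcription factors, 6 were at GFP+ and 3 at GFP- members. Nr2f2, a nuclear receptor of venous endothelium, was at a GFP- member alone, at place 460, where the best GFP+ cluster was at place 511. Lyl1 was at GFP- place 19 and GFP+ place 92 in a shared member.

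Fibroblast genes ran the other way, with 25 of 242 at GFP- members (10.3%, interval 7.10 to 14.8) and 11 of 242 at GFP+ members (4.55%, interval 2.56 to 7.95), a difference of -5.79 percentage points (interval -9.79 to -2.29). Of the 25, 17 were at GFP- members alone, among them Cygb, Htra3, Adamts2 and Tnxb, and 8 were at both, among them Junb at places 63 and 59, a gene of the AP-1 family that many cells induce, and Ltbp4 at 71 and 118. Extracellular matrix genes were 5 of 40 and 2 of 40, with Timp3 and Sparc at both and Mgp, Loxl1 and Col6a3 at GFP- members alone. Pericyte and smooth muscle genes were 5 of 20 and 2 of 20, with Notch3 and Pdzd2 at both, a difference of -15.0 points whose interval included 0 and that turned to 10 when ranked by area per bp and to 5.0 with a stitching gap of 5 kb. Fibroblast transcription factors were 1 of 25 and 0 of 25, that gene being Meox1, and neither population had a member at any of 27 macrophage and lymphocyte genes or 14 Schwann cell and neural genes. Of 40 ribosomal protein genes, 1 was at a GFP- member and 0 at a GFP+ member. Non-specific genes had 39 of 726 in GFP- and 29 of 726 in GFP+, 5.37% and 3.99%.

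**Figure D4:**
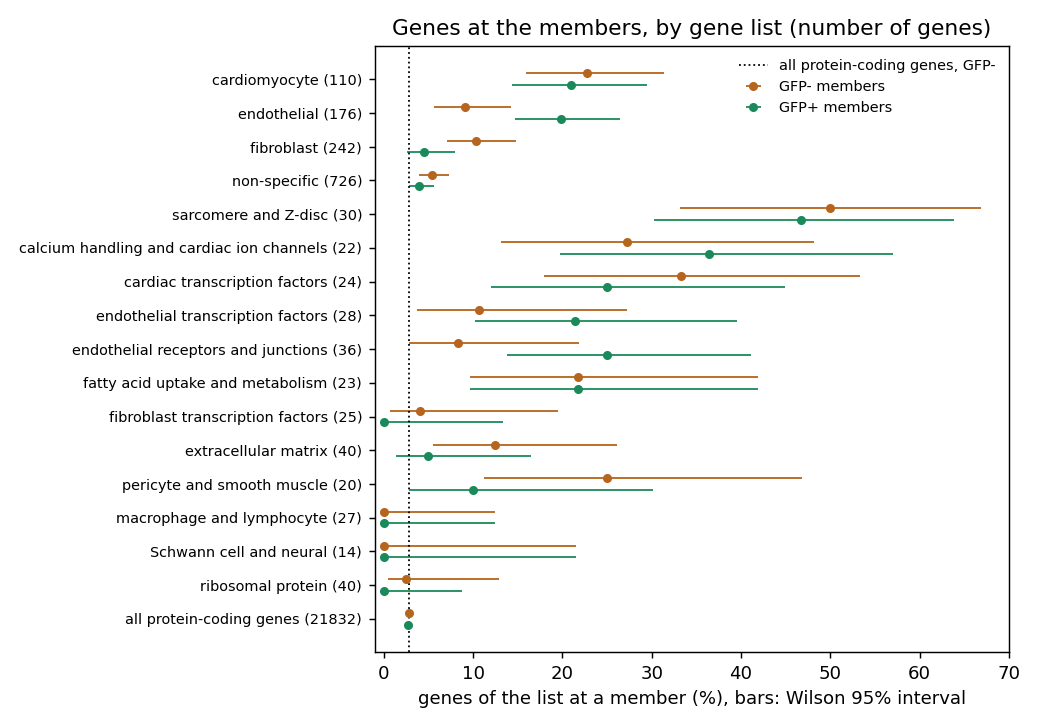
Percentage of the genes of each list at a GFP- and at a GFP+ member (x axis), with Wilson 95% intervals as bars, the number of genes in brackets and a dotted line at 2.81%, the GFP- share of all protein-coding genes. The cardiomyocyte pair lies at 22.7% and 20.9%, the endothelial GFP+ point lies to the right of its GFP- point and the fibroblast GFP+ point to the left of its.

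Members also held starts of noncoding genes, which the rule did not use. Starts of long noncoding genes lay inside 224 GFP- members (44.8%) and 198 GFP+ members (39.6%), and starts of miRNA genes inside 43 (8.60%) and 48 (9.60%). Of 9603 long noncoding genes, 340 (3.54%) had their start inside a GFP- member and 292 (3.04%) inside a GFP+ member. Of 2201 miRNA genes, 58 (2.64%) had their start inside a GFP- member and 69 (3.13%) inside a GFP+ member. Within the first 25 places of either list there were 20 miRNA genes, of which 17 had a mature sequence in RefSeq (GRCm38.p6). The ones shown here are those at the first members, with the seed, bases 2 to 8, in capitals.
mmu-miR-208a-3p: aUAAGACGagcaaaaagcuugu
mmu-miR-208b-3p: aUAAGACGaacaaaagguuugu
mmu-let-7b-5p: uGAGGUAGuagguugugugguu
mmu-let-7c-5p: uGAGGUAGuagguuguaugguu
mmu-miR-126a-3p: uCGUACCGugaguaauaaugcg
The miR-208 pair lies in introns of Myh6 and Myh7, at chr14:54949072-54949093 and chr14:54975710-54975731 on the - strand, and shares the seed UAAGACG. The let-7 pair lies in the Ppara member, at chr15:85707325-85707346 and chr15:85706616-85706637 on the + strand, and shares the seed GAGGUAG. Both members were shared. Mir126a, the endothelial miRNA hosted by Egfl7, at chr2:26591402-26591423 on the + strand, was inside the GFP+ member at place 8 and inside no GFP- member. The muscle miRNA genes Mir1a-1 and Mir133a-2 lay in the member nearest to Gata5, at GFP- place 22 and GFP+ place 17. Mir143 and Mir145a, miRNAs of smooth muscle, lay in the member nearest to Il17b, at GFP- place 34 and GFP+ place 138, and Mir23a with Mir27a lay at GFP- place 57 and GFP+ place 24.

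Promoter peaks of the genes at members were set beside them, since peaks with a summit within 1000 bp of a start took no part in the sums. Each gene received the percentile rank, by area within its list, of its largest promoter peak, and 0 where it had none. Genes at both kinds of member had a median rank of 94.9 in GFP- and 93.6 in GFP+, against 89.8 and 88.1 over all genes with a promoter peak. The median difference of GFP+ minus GFP- was -0.25 over the 175 genes at GFP+ members alone, -1.88 over the 196 at GFP- members alone and -0.82 over all 13658 genes. It was above 0 for 72 of the 175 and 48 of the 196, against 4013 of 13658. The summit rule ties this measure to the members in part, since a start peak counted as distal in 1 list lowers the promoter rank there, and 18 of the 175 fell by over 20 points in GFP+. With the largest peak overlapping the gene start by 250 bp on either side in its place, wherever its summit lay, 15 of 164 genes at GFP+ members alone rose by over 20 points in GFP+ and 5 fell, and 2 of 183 at GFP- members alone rose and 26 fell, against 265 and 971 of 12596 genes. This second measure includes member peaks and is a description. Sox18 had promoter ranks of 21.6 in GFP- and 79.7 in GFP+, Cldn5 9.75 and 87.9, Pdgfrb 83.0 and 0, and Mgp 68.2 and 0. Others went against the class of their member. Elk3 and Cd34, at GFP+ members alone, had 83.1 and 74.7, and 67.7 and 62.8. Meox1, at a GFP- member alone, had 40.8 and 44.4. Of the 175 genes at GFP+ members alone, 103 had the lower rank in GFP+, against 9645 of all 13658.

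DNA letters, also unused by the rule, were searched in 200 bp windows centred on the summits, on both strands. The words were CAGGAAGT for ETS factors, CCATTGT for SOX factors, GATAAG for GATA factors, the MEF2 consensus, CATTCC for TEAD factors, AACAGCTG for TCF21 and related factors, TGANTCA for AP-1 and AGGTCA for nuclear receptors. Matches of different words can share bases, most often those of AP-1 and TEAD, at 156 places over both lists. The TCF21 word was in 101 of 1933 windows of GFP- only members (5.23%, interval 4.32 to 6.31) and in 20 of 1395 windows of GFP+ only members (1.43%, interval 0.930 to 2.20), against 3.50% and 2.17% of all distal windows of the GFP- and GFP+ lists. At least 1 such window was in 72 of 147 GFP- only members and in 19 of 144 GFP+ only members, against 98 of 351 shared members of GFP- and 77 of 354 of GFP+, counts that also move with the number of peaks per member. The AP-1 word was in 11.8% of windows of GFP- only members (interval 10.5 to 13.4) and in 7.96% of those of GFP+ only members (interval 6.65 to 9.50), against 11.4% and 8.97% of all distal windows. The ETS word was in 4.66% of windows of GFP+ only members (interval 3.67 to 5.90) and 3.0% of those of GFP- only members (interval 2.33 to 3.86), against 3.36% and 2.97% of all distal windows in the GFP+ and GFP- lists. These differences were also there between the lists as a whole.

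The words were also counted within members, apart for peaks with and without a partner in the other list. In GFP+ only members, the ETS word was in 22 of 285 windows of peaks without a GFP- partner (7.72%, interval 5.15 to 11.4) and in 43 of 1110 with one (3.87%, interval 2.89 to 5.18). The SOX word was in 5.96% (interval 3.76 to 9.34) and 2.97% (interval 2.12 to 4.15). In GFP- only members, the TCF21 word was in 6.73% of 773 windows without a GFP+ partner (interval 5.17 to 8.72) and 4.22% of 1160 with one (interval 3.21 to 5.54), and the AP-1 word in 15.8% (interval 13.4 to 18.5) and 9.22% (interval 7.69 to 11). The MEF2 word went the other way, in 1.94% of windows without a partner (interval 1.18 to 3.18) and 6.29% of those with one (interval 5.03 to 7.84). The nuclear receptor word was also the scarcer without a partner, at 14.4% (interval 12.1 to 17) against 19.9% (interval 17.7 to 22.3). In GFP+ only members the AP-1 word ran opposite to its difference in GFP- only members, at 4.21% without a partner (interval 2.42 to 7.21) and 8.92% with one (interval 7.38 to 10.7). The intervals overlapped for ETS, SOX and TCF21 words and were clear of each other for the others given here. Over all distal peaks without a partner, the TCF21 word was in 5.71% and AP-1 in 15.1% in GFP-, and ETS and SOX words were in 5.98% and 5.99% in GFP+. The AP-1 word there was in 8.97% of GFP+ windows without a partner (interval 8.37 to 9.60) and 8.97% of those with one, so the low AP-1 share of GFP+ only members was not seen over that list.

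The MEF2 word was scarcer in members than elsewhere, in 4.42% of windows of GFP- members (interval 3.96 to 4.92) against 5.93% of other distal windows (interval 5.74 to 6.13), and in 4.61% against 6.83% in GFP+. The GATA word was in 6.94% against 7.84% in GFP- and in 6.90% against 8.23% in GFP+. Windows of members were richer in G and C, with a median of 54.0% in both lists against 50.5% in other GFP- and 51.0% in other GFP+ distal windows, and the MEF2 word is made mostly of A and T. The part of base composition in these shares was not tested. SOX, TEAD and nuclear receptor words differed between GFP+ only and GFP- only members by 0.95, -1.56 and 2.02 percentage points, with intervals that included 0. Member summits lay in introns of coding genes for 58.5% of peaks in GFP- and 59.3% in GFP+, against 49.6% and 50.6% of other distal peaks.

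**Figure D5:**
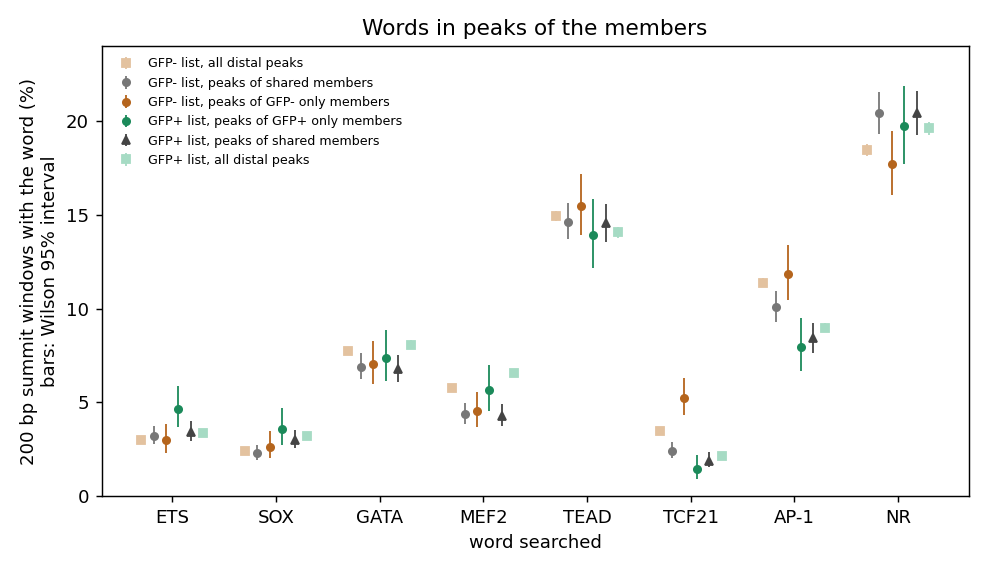
Percentage of 200 bp summit windows that hold each word (y axis) for peaks of shared, GFP- only and GFP+ only members and for all distal peaks of each list, with Wilson 95% intervals as bars. The TCF21 points of the members found in a single set lie apart at 5.23% and 1.43%, the AP-1 points at 11.8% and 7.96% and the ETS points at 3.0% and 4.66%.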

How the data were processed

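ATAC-Seq was performed on sorted GFP- and GFP+ heart nuclei, with 2 replicate libraries each. By the study's methods, the authors trimmed reads with fastp, aligned them to mm10 with Bowtie2 and passed them through a SAMtools quality filter and Picard duplicate removal. Libraries were reduced to a common depth, and Genrich peaks were called in ATAC mode, which centres intervals on Tn5 cut sites, leaving out chrM, chrY and blacklisted regions. The submitters' processing notes name Bowtie2 2.3.5.1, CASAVA 1.4 and SAMtools 1.19. The deposited lists hold 1 row per peak, pooled over both replicates. The signal column deposited by the authors is the peak area used here. The deposited score is limited at 1000, and the −log10 p-value column deposited by the authors was described only. Pooling leaves no replicate spread, and shares of area were used because the total area differs between the lists.

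Starts came from GENCODE vM21, sequences from GRCm38.p6 and names of miRNAs from RefSeq. Summits over 1000 bp from coding starts were stitched at gaps of up to 12.5 kb, and clusters overlapping by 1 bp were called shared. Contigs were left out of the word windows, and 1 GFP+ window chosen by the same rule is not reported here. Python 3.11.15, numpy 2.4.6, pandas 2.3.3, scipy 1.17.1, pysam 0.24.0, samtools 1.23.1 and matplotlib 3.10.9 were used, and the scripts were tested on simulated data. Named genes were those of the 8 largest members of each class, of members at the limit, and up to 4 genes per list at the highest places in each population; Errfi1 and other genes outside this rule were chosen after their values were seen. The cardiomyocyte, endothelial, fibroblast and non-specific lists are the study's sets from public single-cell data. Members and lists were chosen with earlier results of these data known.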

Additional observations from a re-analysis of the deposited data

How the results depend on the processing

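No paired analysis was possible because each population has a single peak list pooled over its replicates, and for the same reason no replicate could be left out. Of 336 values recomputed under alternatives, 289 stayed within the interval of the value reported or, for medians of peaks, within 1.5 times of it, and 44 moved. Another 3, of differences whose interval left out 0, changed sign. The shared percentage, 70.6% of GFP- and 71.2% of GFP+ members, was 60.0% and 60.2% when ranked by number of peaks, 63.6% and 64.2% by the sum of percentile ranks, 48.8% and 48.8% by area per bp, 62.0% and 62.0% when 50% of both clusters had to overlap, and 51.9% of 1342 and 90.2% of 775 members with the limit set where the ranked curve has a slope of 1. With all peaks kept it was 79.0% and 79.4%, and with peaks over a start left out 69.4% and 69.8%. These, and the setting without contigs, were chosen after seeing the data. The median of 13 and 11 peaks per member became 6 and 6 with a gap of 5 kb, 22 and 19 with 25 kb, 1 and 1 without stitching, and 1 and 1 by area per bp.

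The endothelial difference of 10.8 percentage points was above 0 in 15 of 16 alternatives. It was 3.41 without stitching and reversed to -1.70 by area per bp. The fibroblast difference of -5.79 was below 0 in 16 of 16, at -0.83 without stitching, -2.07 by area per bp, -10.7 with 1000 members and -15.3 with the slope limit. In the largest peak of each member alone, the GFP+ only minus GFP- only difference was 5.61 percentage points for MEF2, 3.70 for TEAD and 7.94 for nuclear receptor words, against 1.11, -1.56 and 2.02 over all member peaks. By area per bp the receptors and junctions difference of 16.7 reversed to -2.78, and without stitching that of the non-specific list, -1.38, reversed to 0.28. The cardiomyocyte difference of -1.82 was 4.55 with a gap of 5 kb and 4.55 by number of peaks, and was above 0 in 9 of 16. Lists whose interval included 0 also changed sign, among them sarcomere genes (-3.33, up to 10), calcium handling and channels (9.09, down to -9.09), endothelial transcription factors (10.7, down to -3.57) and pericyte and smooth muscle genes (-15.0, up to 10). The cause was not tested in any of these. Both lists start at a peak area of 200, and the depth of the libraries is not known from them.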
